A study of Homo sapiens with 45 samples.

Results

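DNA repair and replication stress genes were described in HCT116-VR cells as 40 genes named by symbol, of which 40 were found among the 15698 genes of the expression table. The symbols were chosen for their function: 8 checkpoint kinases and partners, 5 genes of BRCA1, BRCA2 and their partners, 6 Fanconi anaemia genes, 5 end resection genes, 7 recombination factors, 2 helicases, 4 nucleases and 3 end joining genes. HCT116-VR is a vorinostat-resistant derivative of the colorectal carcinoma line HCT116. Transcriptomes were measured by RNAseq in 45 libraries, 3 for mock transfection with lipid alone and 3 for each of 14 siRNA pools (siBEGAIN, siCCNK, siCDK10, siDPPA5, siEIF3L, siGLI1, siJAK2, siNFYA, siPOLR2D, siPSMD13, siRGS18, siSAP130, siTGM5 and siTOX4) at 40 nM, all harvested at 48 h. All 45 libraries, mock included, came from the same resistant line, and no parental cells are compared here.

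DNA double-strand breaks are recognised by the MRE11-RAD50-NBN complex, resected by RBBP8 and EXO1, and repaired either from a sister chromatid, with BRCA1, PALB2 and BRCA2, or by end joining with PRKDC and LIG4. Stalled replication forks and crosslinks are handled by ATR with its partner ATRIP, by CHEK1, and by the Fanconi pathway, in which FANCL attaches ubiquitin to FANCD2 and FANCI. CCNK, a target of the siRNAs, encodes cyclin K, the partner of the kinases CDK12 and CDK13, which phosphorylate RNA polymerase II and are known for their part in the transcription of long DNA repair genes.

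The names of the libraries were checked first, since every comparison between conditions rests on them. The deposited columns carry library numbers (KF_1 to KF_51, with gaps), and the sample record of the study ties each number to a condition and replicate. Of the 14 targeted genes, 11 were in the table, and of the 33 places that their 3 lowest libraries make up, 3 were listed under the siRNA against that gene. CCNK was read 43, 44 and 42 times in KF_29, KF_39 and KF_49, against 889 reads in the library with the next lowest log2 value and a median of 1021. Those libraries were listed as siRGS18 replicate 2, siDPPA5 replicate 3 and siTGM5 replicate 3, while the libraries listed as siCCNK held 1001, 1228 and 1652 reads of CCNK. POLR2D, a subunit of RNA polymerase II, was lowest in KF_16, KF_44 and KF_19 (102, 87 and 147 reads, median 1001), which were listed as mock replicate 2, siPOLR2D replicate 3 and siCDK10 replicate 2. The names of the record are therefore used below as listed names only. Neither the expression values nor the column order was used to assign conditions, and outside the comparisons by listed name each library is described on its own.

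Reads on the 15698 genes ranged from 7569592 to 21149597 per library. The epithelial label of the line was met by 5 of 7 colon epithelial markers in the table (EPCAM, CDH1, KRT8, KRT18 and KRT19), with medians from 6.78 to 10.30 on the log2 scale, while CDX1 and VIL1 were not among the 15698 genes. Of leukocyte and endothelial markers 0 of 4 and 0 of 3 were in the table, and of 4 fibroblast markers COL1A1 alone was, with a median log2 value of 3.64. Its part in the results was not tested.

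All 40 members were read in every library. Values below are the deposited log2 values, the log2 of CPM (counts scaled to the size of the library) with 0.5 reads added to each count. The lowest value of any member was 1.68, for RAD52 in KF_44, where it was read 30 times, and 3 reads correspond to log2 values between -2.50 and -1.07. Per kilobase of merged exon, PRKDC, the catalytic subunit of the DNA-dependent protein kinase, had the highest median level, 40.0 CPM per kb. EXO1, a resection exonuclease, followed with 20.4, then TOPBP1, an activator of ATR, with 18.0, the chromatin adaptor MDC1 with 17.4 and CHEK1 with 15.5. The lowest levels per kilobase were those of FANCL at 0.319, ATM at 0.479 and RAD51D at 0.793. Merged exons hold rarely used sequence, and with the length of the longest transcript 8 of these first 10 members stayed among the first 10.

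The s.d. of the members over the 45 libraries ranged from 0.179 to 0.529 on the log2 scale with a median of 0.390, while the median s.d. of the 10160 genes with a median log2 value of at least 3 was 0.331. The largest s.d. belonged, in order, to NBN, BARD1, LIG4, EME1, BRIP1, MUS81, BRCA1, FANCA, CHEK2 and FANCL. PRKDC, RAD51C, TOPBP1, RAD54B and MRE11 had the smallest. The wide members come from 6 of the 8 roles, and the steady ones include both the most highly read member and MRE11, whose median was 157 reads.

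**Figure D1:**
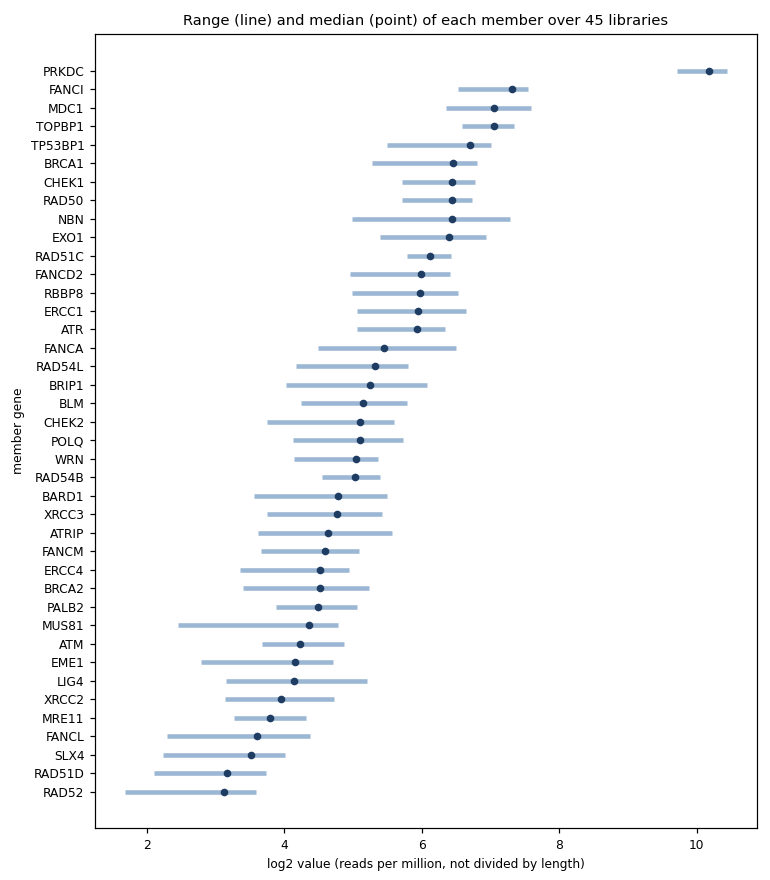
Range (line) and median (point) of the log2 value of each of the 40 members over the 45 libraries, ordered by median. MUS81 reached down to 2.45 from a median of 4.36, while PRKDC stayed between 9.72 and 10.44.

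**Figure D2:**
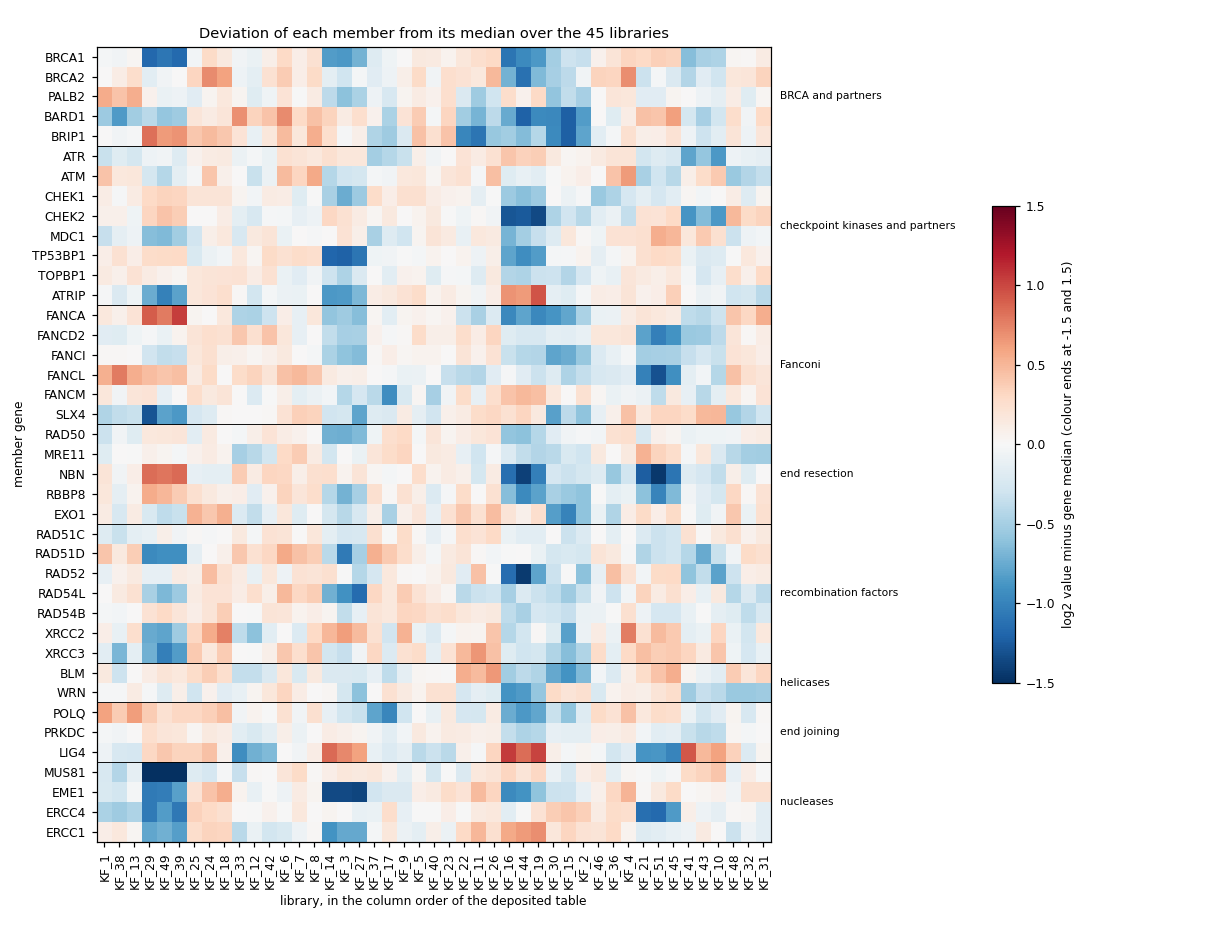
Deviation of each member (rows, by role) from its own median in each library (columns, in the order of the deposited table), on the log2 scale with the colours ending at -1.5 and 1.5. Blue patches mark MUS81, EME1 and BRCA1 in KF_29, KF_49 and KF_39, EME1 and TP53BP1 in KF_14, KF_3 and KF_27, and CHEK2 and NBN in KF_16, KF_44 and KF_19.

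Compared by listed name, no member passed the test between an siRNA and mock. The siRNA targets went against the listed names, so these tests cannot tell whether a knockdown changed a member. Each siRNA group was set against mock in a limma fit of all 45 libraries, and 0 of the 560 tests of a member passed (adjusted p under 0.05 and a change of 1 or more on the log2 scale), beside 0% of the 219730 tests over all genes. At an unadjusted p under 0.05 there were 22 member tests (3.93%), beside 4.73% over all genes. The lowest adjusted p of a member in limma was 0.48, for MDC1 in siPSMD13, with a log2 fold change of 0.68 ± 0.24 (SE, n = 3 against 3). The largest change was that of ATRIP in siTGM5, -0.98 ± 0.29 (SE, n = 3 against 3; limma adjusted p = 0.60). The median log2 fold change of the 40 members ran from -0.07 in siTOX4 to 0.28 in siJAK2, where 34 of 40 were above mock, and that of all genes from -0.01 to 0.04.

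The comparison of listed siCCNK with listed mock was the one that bears the name of cyclin K. In it 2 of 40 members had an unadjusted p under 0.05, beside 4.57% of all genes. The members had a median log2 fold change of 0.05, 24 of 40 were above mock, and the lowest adjusted p was 0.94 (limma). BRCA1 stood at 6.43, 5.36 and 6.40 in the libraries listed as mock replicates 1 to 3 (6.06 ± 0.609, SD, n = 3), and its difference in siCCNK was 0.09 ± 0.39 on the log2 scale (SE, limma adjusted p = 0.99). ATR differed by -0.06 ± 0.26 (SE, limma adjusted p = 0.99), FANCD2 by -0.09 ± 0.28 (SE, limma adjusted p = 0.99) and FANCI by -0.08 ± 0.25 (SE, limma adjusted p = 0.99). All of these differences lay within their SE. CCNK itself was not low in the libraries listed as siCCNK. The comparison thus holds no lowered CCNK mRNA and does not address cyclin K and the repair genes.

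The spread inside the listed groups was wide. NBN was 6.63, 5.30 and 6.83 in the libraries listed as mock, and LIG4, the ligase of end joining, was 4.06, 5.19 and 3.21. The second library of each, KF_16, was low for NBN and high for LIG4, and its POLR2D count was among the 3 lowest. The pooled s.d. within listed groups was 0.536 for NBN and 0.546 for LIG4, beside s.d. over all 45 libraries of 0.529 and 0.520, so grouping by the listed names left the spread of these members as wide as without any names.

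**Figure D3:**
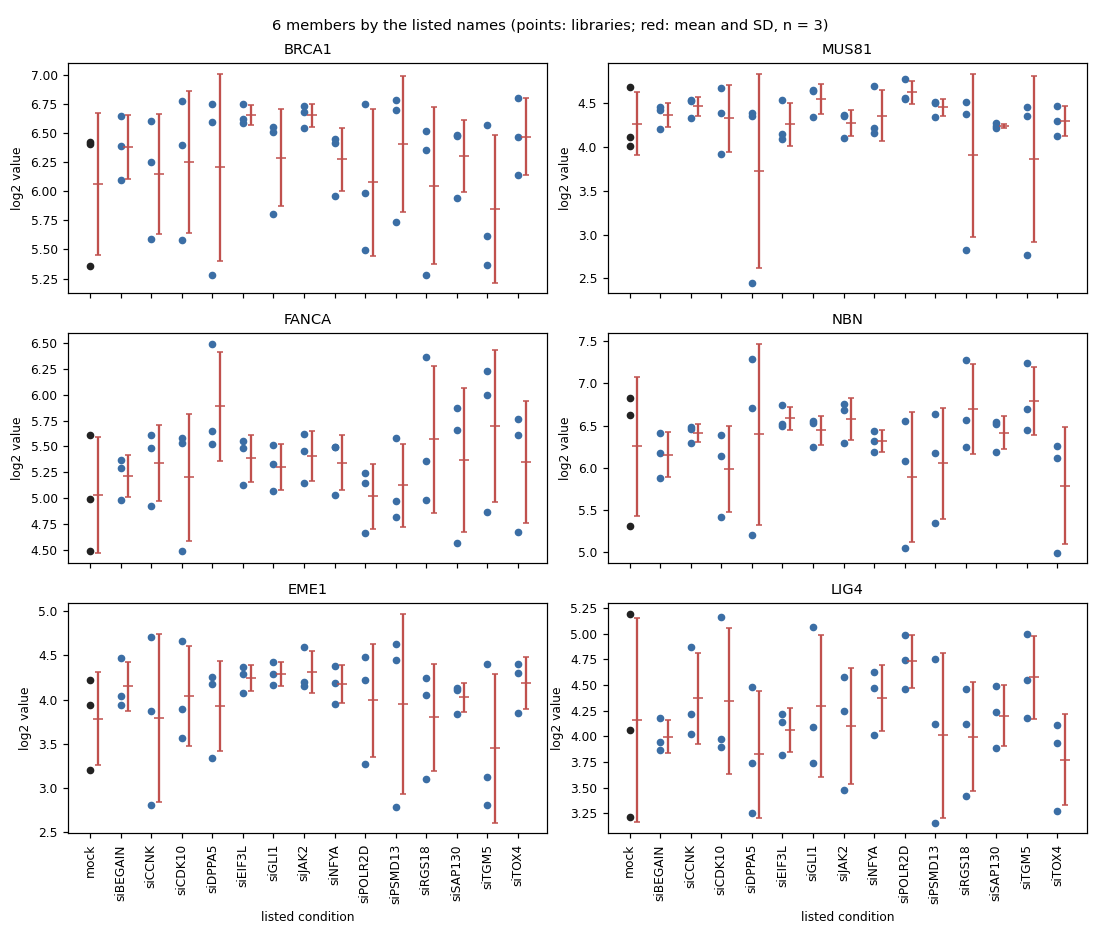
Log2 values of 6 members in the 3 libraries of each listed condition (points; mock in black), with the mean and SD in red. Single libraries listed as siDPPA5, siRGS18 and siTGM5 held MUS81 at 2.45, 2.83 and 2.77 while the other libraries of those groups lay above 4.

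With no names used, the lowest and highest 3 of the 45 libraries were noted for each member. Among the BRCA group, BRCA1, a ubiquitin ligase and mediator of recombination, ranged from 5.28 to 6.80 around a median of 6.45 on the log2 scale. It was lowest in KF_29 and KF_39 (both 5.28), KF_16 and KF_49 (both 5.36) and KF_44 (5.49), and no clear gap set 3 libraries apart from the next. BARD1, its obligate partner, was lowest at 3.56 in KF_15 and 3.57 in KF_44, around a median of 4.78. BRCA2, a mediator of recombination, was lowest in KF_44 at 3.40, KF_16 at 3.81 and KF_19 at 3.86, against a median of 4.52. BRIP1, a helicase that binds BRCA1, was lowest in KF_15 at 4.02 and highest in KF_29, KF_39 and KF_49 at 6.07, 5.91 and 5.88. BRCA1 and BRIP1 thus lay at opposite ends in KF_29, KF_39 and KF_49. PALB2, the bridge between BRCA1 and BRCA2, ranged from 3.88 to 5.05 and was highest in KF_1.

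Among the nucleases, MUS81, which cuts branched DNA at stalled forks, had the widest fold range of all members, 5.01 between its highest and lowest library. It was 2.45 in KF_39, 2.77 in KF_49 and 2.83 in KF_29, where it was read 72, 85 and 140 times, and 3.92 in the next library, with a median of 4.36. The step of 1.08 from the 3 lowest libraries to the next was the widest of any member at either end. EME1, its partner subunit, was lowest in another set of libraries, at 2.78 in KF_27, 2.80 in KF_3 and 2.81 in KF_14, with KF_29 and KF_49 next at 3.10 and 3.13 and a median of 4.16. ERCC4, the catalytic subunit of the XPF-ERCC1 nuclease, was lowest in KF_51 at 3.35 and KF_21 at 3.39, followed by KF_39 and KF_29, both at 3.45. Its partner ERCC1 was lowest in KF_14 at 5.05, KF_39 at 5.13 and KF_29 at 5.16. All 4 nucleases were below their own medians in KF_29, KF_39 and KF_49, where the median deviation of the role was -1.06, -0.95 and -0.93.

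Among the checkpoint genes, CHEK2, the effector kinase of ATM, was 3.75 in KF_19, 3.81 in KF_16 and 3.84 in KF_44, with a median of 5.10 and the next library at 4.22. ATR and ATRIP, which act as a complex, were highest in the same libraries: ATR reached 6.34 in KF_16, 6.30 in KF_19 and 6.27 in KF_44, and ATRIP reached 5.57 in KF_19, 5.30 in KF_16 and 5.27 in KF_44. CHEK1, the effector kinase of ATR, was among its lowest there, at 5.81 in KF_44 and 5.89 in KF_16 against a median of 6.44. In KF_16 and KF_44, ATR and ATRIP were thus among their highest 3 values while CHEK1 and CHEK2 lay below their medians. TP53BP1, which limits resection, was 5.49 in KF_3, 5.52 in KF_14 and 5.61 in KF_27, around a median of 6.71. ATM ranged from 3.67 to 4.87 and MDC1 from 6.36 to 7.60, while TOPBP1 stayed between 6.58 and 7.35.

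Among the Fanconi genes, FANCA, a subunit of the core complex, was highest in KF_39 at 6.50, KF_29 at 6.36 and KF_49 at 6.23, against a median of 5.45. It was lowest in KF_16 and KF_19, both at 4.49. FANCL, the ubiquitin ligase of the complex, was 2.29 in KF_51, 2.59 in KF_21 and 2.68 in KF_45, where it was read 53, 66 and 84 times, and 3.14 in the next library. FANCD2, a substrate of FANCL, was lowest in the same libraries, at 4.95 in KF_51, 5.09 in KF_45 and 5.18 in KF_21 against a median of 5.98. FANCI, the other substrate, was lowest in KF_30 at 6.52 and KF_15 at 6.56. FANCM, the translocase that brings the core complex to DNA, reached 5.08 in KF_44, 5.04 in KF_19 and 5.03 in KF_16. SLX4, a scaffold for nucleases, was lowest in KF_29 at 2.23, KF_39 at 2.65 and KF_30 at 2.70, with KF_49 next at 2.72.

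Among the resection genes, NBN had the largest s.d. of all members and a 4.93-fold range. It was 7.29 in KF_39, 7.28 in KF_29 and 7.24 in KF_49, with the next library at 6.83, a median of 6.44, and a lowest value of 4.99 in KF_51. RBBP8, the activator of MRE11, was highest in the same libraries at 6.53, 6.36 and 6.47 in KF_29, KF_39 and KF_49 and, like NBN, lowest in KF_51, at 4.98. RAD50, which forms a complex with MRE11 and NBN, was lowest in KF_3 at 5.71, KF_14 at 5.72 and KF_27 at 5.77. MRE11 stayed between 3.26 and 4.31, and it was among its 3 highest in KF_21 and KF_51, where NBN was among its 3 lowest. EXO1 was lowest in KF_15 at 5.40, KF_30 at 5.58 and KF_2 at 5.80 and highest in KF_18 at 6.93.

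Among the recombination factors, RAD51D and XRCC3 were low in KF_29, KF_39 and KF_49. RAD51D was 2.21, 2.24 and 2.25 there, next to its lowest value of 2.11 in KF_3, and XRCC3 was 4.03, 3.93 and 3.74, its lowest values. XRCC2, which forms a complex with RAD51D, was lowest in KF_15 at 3.14, KF_49 at 3.16 and KF_29 at 3.19. RAD51C, which forms complexes with either of them, ranged only from 5.78 to 6.43. RAD52, an annealing factor, was 1.68 in KF_44 and 1.98 in KF_16 against a median of 3.12. RAD54L, a motor protein of recombination, was lowest in KF_27 at 4.16, KF_3 at 4.40 and KF_14 at 4.59, while its relative RAD54B stayed between 4.54 and 5.39. Of the helicases, BLM was lowest in KF_15, KF_30 and KF_2 at 4.24, 4.37 and 4.48, and WRN in KF_16 and KF_44 at 4.14 and 4.18.

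All 3 end joining genes were above their medians in KF_29, KF_49 and KF_39, where the median deviation of the role was 0.32, 0.23 and 0.31. The 11 other end joining genes went the other way there, with medians of -0.15, -0.19 and -0.17, beside 0.05, 0.02 and 0.02 for expressed genes. PRKDC ranged from 9.72 in KF_44 to 10.44 in KF_29, a 1.65-fold range. LIG4 was highest in KF_16 at 5.19 and KF_19 at 5.16 and lowest in KF_45 at 3.16, around a median of 4.14. POLQ, the polymerase of a further end joining route, was lowest in KF_17 at 4.12 and highest in KF_13 at 5.73.

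Some of these sets of libraries were also the 3 lowest for an siRNA target. The 3 libraries lowest in CCNK (KF_29, KF_39 and KF_49) were the 3 lowest of XRCC3 and MUS81, beside 5.48% of all genes, and the 3 highest of FANCA, CHEK1, NBN, BRIP1, RBBP8 and PRKDC, 6 of 40 beside 4.55% of all genes. The kinases CDK12 and CDK13 had their highest log2 values in the same libraries, at 7.98, 7.93 and 7.84 and at 6.13, 6.14 and 6.10 in KF_29, KF_39 and KF_49. The 3 lowest in POLR2D (KF_16, KF_44 and KF_19) were the 3 lowest of BRCA2 and CHEK2, beside 8.64%, and the 3 highest of ATR, FANCM, ATRIP and ERCC1, beside 9.59%.

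The 3 lowest in GLI1 (KF_14, KF_3 and KF_27, with 0 reads each, where 3 reads could have been missed) were the 3 lowest of RAD50, RAD54L, TP53BP1 and EME1, beside 3.64%, and the 3 highest of 0 members, beside 3.56%. GLI1 had a median of 10 reads and 2 reads in the next lowest library, so its counts do not set these 3 libraries apart. For PSMD13, a proteasome subunit (KF_30, KF_15 and KF_2), the members were BLM and EXO1 at the low end, beside 1.59%, and ERCC4 at the high end, beside 3.82%. For SAP130, a subunit of a histone deacetylase complex (KF_21, KF_51 and KF_45), they were FANCD2 and FANCL at the low end, beside 4.65%, and 0 at the high end, beside 4.42%. The lowest libraries of the other 6 targets in the table matched those of no member. Since 2 of 40 members make up 5% and 4 make up 10%, the shares beside POLR2D at both ends, beside CCNK and SAP130 at the low end and beside PSMD13 at the high end (1 of 40) were near the background, and nothing is read from them. The background shares of these sets are over all genes. All members have a median log2 value of at least 3, so these shares are not a matched background at either end. CCNK shares 59.5% of its exonic length with the opposite-strand gene CCDC85C.

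Library by library, KF_44 had the most members among their lowest 3, with 12 of 40 (30%) beside 17.9% of all genes. KF_3 followed with 10 (10.1% of all genes), then KF_16 with 9 (16%), KF_29 with 8 (9.9%) and KF_39, KF_30 and KF_15 with 7 each (12%, 8.01% and 7.15%). All members had a median log2 value of at least 3. Over genes with such a median the low shares were 22.3% in KF_44, 10.6% in KF_3, 19.8% in KF_16 and 10.1% in KF_29. They were 12.6%, 7.35% and 7.5% in KF_39, KF_30 and KF_15. The 9 members of KF_16 (22.5%) were thus near the background. At the high end, KF_39 held 8 members (9.51% of all genes), KF_49 and KF_4 held 7 each (11.6% and 2.13%), and KF_29, KF_18 and KF_16 held 6 each (11.8%, 2.23% and 16.9%). By count alone, KF_16, KF_29 and KF_39 were near the top on both sides, whereas KF_3 was high on the low side alone. KF_4 and KF_18 were so on the high side alone, with no member among their lowest 3. Over genes with a median of at least 3, the high shares were 10.9% in KF_39, 13.4% in KF_49 and 1.42% in KF_4. They were 14.7% in KF_29, 2.09% in KF_18 and 13.7% in KF_16. The 6 members (15%) of KF_29 and of KF_16 were near these shares, and nothing is read from them.

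The median deviation of the 40 members from their own medians was lowest in KF_44 and KF_16, both at -0.41, and KF_19 at -0.34. It was -0.31 in KF_15, -0.30 in KF_3 and -0.28 in KF_30, and highest in KF_24 at 0.19, KF_6 at 0.18 and KF_18 at 0.16. In KF_29, KF_49 and KF_39 it was -0.04, -0.10 and -0.01. There 11, 13 and 13 members were at least 0.5 below their median, beside 14.6%, 16.4% and 16.6% of expressed genes, and 4, 3 and 3 were at least 0.5 above, beside 9.71%, 9.64% and 8.22%.

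**Figure D4:**
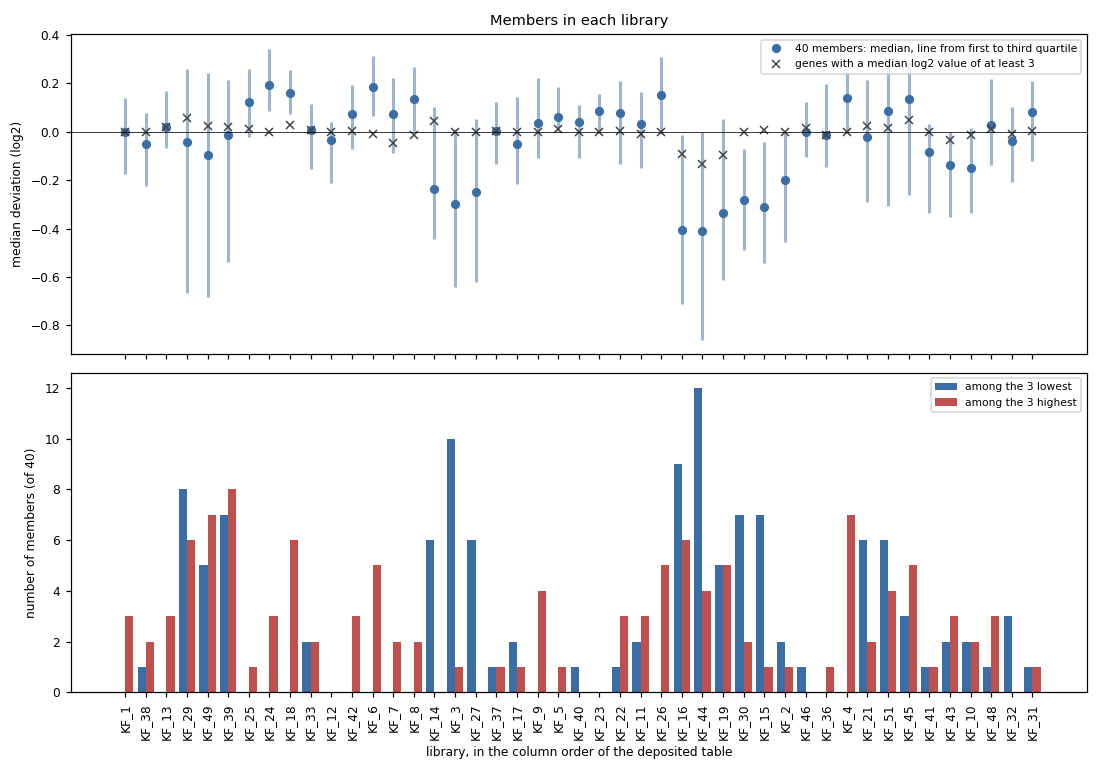
Upper panel, the median deviation of the 40 members in each library (log2; lines from the first to the third quartile) with crosses for the 10160 genes with a median log2 value of at least 3. Lower panel, the number of members for which the library was among the 3 lowest or 3 highest. KF_16, KF_44 and KF_19 were lowest in the upper panel, at -0.41, -0.41 and -0.34, and KF_44 had the tallest bar in the lower one, at 12.

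Other lists moved in the libraries where the members were lowest. In KF_16, KF_44 and KF_19 the median deviation of 16 p53 target genes was 1.03, 0.96 and 1.02, that of 26 replication genes was -0.41, -0.48 and -0.37, and that of 12 mitotic genes was -0.49, -0.43 and -0.34. Expressed genes as a whole had medians of -0.09, -0.14 and -0.10 there. In KF_30, KF_15 and KF_2 the p53 targets stood at 0.69, 0.62 and 0.42 and the replication genes at -0.35, -0.45 and -0.25. The p53 targets moved less in KF_3, KF_27 and KF_14, where the members stood at -0.30, -0.25 and -0.24. There they were at 0.16, 0.17 and 0.27, and the replication genes at -0.35, -0.23 and -0.14. KF_44 was also among the shallower libraries, with 8849177 reads. Their part in the member values was not tested.

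Neighbouring repair pathways had medians of their own. In KF_44 the 13 other checkpoint genes stood at -0.52 and the 11 other end joining genes at -0.46, while 26 other recombination and Fanconi genes stood at -0.14 and 24 excision repair genes at -0.15. Those 26 genes were lowest in KF_15, at -0.38. In KF_29, KF_49 and KF_39 they were -0.19, -0.27 and -0.18, with BAP1, a deubiquitinase that binds BRCA1, at its 3 lowest values (4.59 in KF_49). DNA2, a resection nuclease, had its 3 highest values in the same libraries (5.14 in KF_29), and its lowest, 2.57, in KF_44. By listed name none of these genes passed the test, as none of all genes did.

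The members are long genes. From the first to the last annotated base they spanned a median of 74.4 kb, from 8.26 kb for EME1 to 228 kb for RBBP8, against 35.3 kb for the 9204 protein-coding genes with a median log2 value of at least 3. Across the 40 members, Spearman's rho between span and deviation was 0.53, 0.52 and 0.53 in KF_29, KF_49 and KF_39, so the longer members were the higher ones there. It was negative in 24 of the 45 libraries, lowest in KF_10 at -0.59 and KF_41 at -0.52, then -0.47 in KF_19, -0.45 in both KF_43 and KF_44 and -0.38 in KF_16. Over the 9204 genes rho ran from -0.29 to 0.31 in the 45 libraries and was 0.26, 0.31 and 0.28 in KF_29, KF_49 and KF_39. A positive rho was not particular to these libraries. In KF_6 it was 0.30 over the 9204 genes and 0.38 across the members, and over the 9204 genes it was 0.19 in KF_7 and 0.18 in KF_8. These correlations are descriptions across genes of 1 library, which share depth and are not independent. The short members MUS81 (GRCh37 chr11:65624597-65635124), XRCC3 (chr14:104163946-104181841) and EME1 (chr17:48450581-48458844) were low in KF_29, KF_49 and KF_39, and NBN and RBBP8 high. Other members went against the trend: LIG4, which spans 10.9 kb, was above its median in all of them, and BRCA1, which spans 126 kb, had 3 of its 4 lowest values there.

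Promoters of the 4 members with the widest step from their 3 lowest libraries to the next are shown, each as the 120 bases before the RefSeq start site on GRCh38.p14 in the direction of the gene. Of the 40 members, 35 had a promoter in the RefSeq table. CCAAT on either strand (ATTGG when read on the strand shown) is in capitals.
MUS81, chr11:65860313-65860432, plus strand: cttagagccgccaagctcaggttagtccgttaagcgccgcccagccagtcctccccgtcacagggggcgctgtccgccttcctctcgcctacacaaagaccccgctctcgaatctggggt
FANCL, chr2:58241326-58241445, minus strand: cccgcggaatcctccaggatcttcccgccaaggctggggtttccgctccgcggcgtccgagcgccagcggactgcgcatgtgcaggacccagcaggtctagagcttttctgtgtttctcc
CHEK2, chr22:28741821-28741940, minus strand: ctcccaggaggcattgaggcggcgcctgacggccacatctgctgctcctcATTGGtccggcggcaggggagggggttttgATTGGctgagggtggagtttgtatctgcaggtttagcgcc
EME1, chr17:50373109-50373228, plus strand: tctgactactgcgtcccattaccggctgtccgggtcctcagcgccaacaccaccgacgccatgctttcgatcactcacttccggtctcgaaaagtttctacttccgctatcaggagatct
CHEK2 held the word 2 times in this window, and the other promoters shown held it 0 times. In the 250 bases before the start, CCAAT on either strand was in 15 of the 35 member promoters (42.9%), MUS81 and CHEK2 among them, and in 32.0% of all 35116 promoters. The E2F-like words TTTCGCGC and TTTGGCGC, again on either strand, were in 0 of 35 member promoters, against 0.439% and 0.550% of all. These are matches of letters and not sites of binding.

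Several members share exonic sequence with a neighbouring measured gene. The poly-A library kit does not mark strand, so strand cannot assign reads on the shared sequence to either gene. Whether the counting dropped such reads is not given in the sources used here. The share was 76.7% of exonic length for XRCC3 (with KLC1), 28.8% for TP53BP1 (TUBGCP4), 28.6% for ERCC1 (POLR1G), 26.7% for ATRIP (TREX1, on the same strand), 19.9% for RAD54L (LRRC41), 19.6% for FANCA (ZNF276), 16.4% for EME1 (LRRC59) and 13.9% for MUS81 (CFL1). By this measure the values of XRCC3 are the least certain of the 40.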

How the data were processed

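RNAseq was done on HCT116-VR cells 48 h after transfection. The authors prepared poly-A libraries with a kit that does not keep strand, mapped single-end reads with TopHat 1.4.1 (GRCh37), counted them with HTSeq over Ensembl release 67 genes, and applied edgeR and limma voom. What the authors deposited are log2 values of CPM for 15698 genes. The strand setting of the counting is not given in the sources used here. Whole reads were recovered by setting the minimum of every library to 0 reads, with an offset of 0.5, and 100% of values lay within 0.001 of a whole number. Columns were tied to conditions by the sample record of the study, used as listed names because the siRNA targets went against it.

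Each listed siRNA was compared with listed mock in 1 fit of 45 libraries (limma 3.58.1 in R 4.3.3, eBayes with trend, 30 residual degrees of freedom, 15695 genes that reached -1 on the log2 scale in 3 or more libraries, Benjamini-Hochberg adjustment). In 1 simulated data set of 15633 genes for siBEGAIN, 199 of 200 genes changed 3-fold were recovered, with 8 false calls and 1 call in unchanged groups. The simulated libraries had true names, and every gene had the same spread beyond counting error. The recovery therefore does not measure the power of the comparisons by listed name. Replicates are described as separate experiments, and p-values measure the spread between libraries as listed. Other values are descriptions of each library, without tests, made in Python 3.11.15 with pandas 2.3.3, numpy 2.4.6 and scipy 1.17.1. Plots used matplotlib 3.10.9. Gene models were GENCODE 44 on GRCh37, which named 15366 of the identifiers. Counting limits cover counting error only.

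The members, lists and tests were chosen with earlier results of these data known. The rule for named genes took all 40 members by role, the siRNA targets, CCNK, CDK12 and CDK13, in full the 10 members with the largest and the 5 with the smallest s.d., the 5 libraries with the most members at each end, and the 3 genes with the largest s.d. of each other list. DNA2 falls outside it and was named after its values were seen. Some single genes are not reported here.

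The replicate numbers were not treated as pairs. Deviations of same-numbered libraries from their listed group means had a median r of -0.00035 over 315 pairs, from -0.57 to 0.83. Those groups rest on names that the siRNA targets contradict, so this check cannot tell whether same-numbered libraries belong together.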

Additional observations from a re-analysis of the deposited data

How the results depend on the processing

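By listed name, 0 member tests passed under every alternative run, which were a replicate block, only the 6 libraries compared, no filter or a log2 minimum of 1, median centring, quantile normalisation, log2 of CPM plus 1, no trend, other siRNAs as control, the adjusted p alone, and each of 45 libraries left out. Over all genes the count was 0 with the replicate block, 1 with other siRNAs as control (SARDH in siDPPA5) and from 0 to 3 with 1 library left out. The 3 came without mock replicate 2, and 1 each without siBEGAIN replicate 3 and siTOX4 replicate 3. The block used the replicate numbers of the listed names and changed no call.

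With 1 library at an end in place of 3, the most members with their lowest value in 1 library fell from 12 to 5 (KF_44) and with their highest from 8 to 3 (KF_39), as fewer places were counted. With 1 library left out these counts were 12 to 14 and 8 to 8. The lowest median deviation was -0.4144 to -0.4023, the highest 0.1845 to 0.1957, and the median s.d. 0.3692 to 0.394. With quantile normalisation the lowest median deviation was -0.30. Read totals set the floor at 3 reads, far below every member value. The listed names of the libraries are contradicted by the siRNA targets, and no conditions were assigned in their place, so the members were not compared between knockdowns under other names.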

Other observations

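Excision repair genes outside the 40 members also had single sets of extreme libraries. NEIL2, a glycosylase that removes oxidised bases, had a median log2 value of 6.10 and was 3.21 in KF_30, its lowest library, followed by KF_15 and by KF_2 at 3.53. These are the libraries lowest in PSMD13, BLM and EXO1. TDG, a glycosylase of mismatched thymine, was 2.68 in KF_3 against a median of 4.48, and SMUG1, a uracil glycosylase, was 2.27 in KF_49, followed by KF_39 and by KF_29 at 2.66, against a median of 4.56. They were named for the largest s.d. of their list (0.74, 0.72 and 0.62).

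Among the other recombination and Fanconi genes the widest were RMI2, FANCF and BAP1. FANCF, an adaptor of the core complex, was 0.64 in KF_33, followed by KF_12 and by KF_42 at 1.03, around a median of 2.99, while no member had its 3 lowest values in that set. RMI2, a partner of BLM, was lowest in KF_14 at 2.40 and highest in KF_38 at 5.01. MSH3 and MLH3, mismatch repair genes, had median log2 values of 1.23 and 4.02.

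Of the other end joining genes, POLL, a gap-filling polymerase, was 2.92 in KF_39, 3.18 in KF_49 and 3.50 in KF_29 against a median of 4.66. PAXX, a partner of the Ku proteins, was lowest in the same libraries, at 3.32 in KF_49, against a median of 4.62. NHEJ1 had a median log2 value of -0.31 and was read once or more in every library. Among the other checkpoint genes, RAD17, the loader of the checkpoint clamp, was 3.58 in KF_30 and 3.63 in both KF_2 and KF_15, with a median of 5.18. ETAA1, an activator of ATR, was 2.57 in KF_16 against 3.99, and WEE1, which restrains entry into mitosis, was 5.30 in KF_36 against 6.45.

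The p53 targets with the largest s.d. had their 3 highest values in KF_16, KF_44 and KF_19. CDKN1A was 8.96 in KF_16 against a median of 6.96, TP53I3 reached 4.60 in KF_16 against 2.99, and ZMAT3 reached 6.92 in KF_16 against 4.77. The widest replication genes, CCNE1 and MCM2, had their 3 lowest values in KF_3, KF_14 and KF_27 (4.46 in KF_3 and 7.12 in KF_14), and E2F1 was lowest in KF_30 at 3.31. Among the mitotic genes AURKB was 4.93 in KF_39 and 4.96 in both KF_29 and KF_49 against a median of 6.43, AURKA was lowest in KF_3 at 5.62 and MKI67 in KF_30 at 8.09.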
